A study of Mus musculus with 17 samples.

Results

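The genes described here are the enzymes, regulators and transporters of cholesterol and fatty acid metabolism, a list of 37 gene symbols given by name, of which 36 stood in the deposited table of 15355 genes. They were measured in RNA pulled down with tagged ribosomes from the mediobasal hypothalamus of POMC-RiboTag mouse offspring, and all 17 libraries carry that tag. In such mice an HA epitope on a ribosomal protein is switched on in cells whose driver gene, here Pomc, is or has been active. POMC neurons release peptides that restrain feeding. Offspring of dams fed a high-fat diet (HFD, 45%) were sampled on postnatal day 21 (P21, the age of weaning, 4 libraries), with 3 libraries from offspring of dams on standard chow at that age. On postnatal day 0 (P0) there were 5 libraries from offspring of HFD dams and 5 from offspring of chow dams. Dams were 6 weeks old when their diet began, mating followed 4 weeks later, and the diet was kept up to P21. The labels tie no library to an animal, a litter or a pool, and they name no sex and no batch, so the p-values measure only the spread between these libraries, which may be technical.

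Cells make cholesterol from acetyl-CoA through the mevalonate pathway, which ends in farnesyl pyrophosphate, and then through squalene and a chain of sterol intermediates. The genes of this pathway are switched on together by the SREBP transcription factors, which the escort protein SCAP releases from the endoplasmic reticulum when sterols are scarce and which the INSIG proteins hold back when sterols are plentiful. Fatty acids are built by fatty acid synthase, lengthened by the ELOVL elongases and given double bonds by the SCD and FADS desaturases. In the brain, cholesterol is made locally because lipoproteins of the blood do not cross the blood-brain barrier, and glia, above all the myelin-forming oligodendrocytes, are large producers.

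Values are the authors' normalized gene levels, in scaled CPM-like units, and a log2 change is the difference of log2(value + 1) between group means. A gene was called when limma's test, fitted over all genes with Benjamini-Hochberg adjustment, gave an adjusted p under 0.05. Depth ran from 22.4 to 37.1 M reads (M, mega) counted to genes per library. Markers of POMC neurons and of other cells were present in every group. The summed level of 14 oligodendrocyte-lineage markers ran from 4086 to 7508 in HFD P21, from 8394 to 18734 in chow P21, from 367 to 488 in HFD P0 and from 458 to 1093 in chow P0. That of 12 astrocyte markers ran from 1019 to 1660 in HFD P21, from 2275 to 3085 in chow P21, from 669 to 912 in HFD P0 and from 592 to 1034 in chow P0. The 6 POMC-neuron markers summed to 10286.5 to 13266 in HFD P21, 5019 to 12817.5 in chow P21, 253 to 1628 in HFD P0 and 307.5 to 1799 in chow P0, and no marker of these lists was at 0 throughout a group. Each library holds pulled-down RNA of many cells. Fewer cells of a type, less RNA per cell and a different carry-over of RNA from untagged cells cannot be told apart. Replicate 5 of HFD P0 and replicate 3 of chow P21 held the highest POMC-marker sums of their groups, and results that rest on them are given with and without them. In replicate 3 of chow P21 Pomc alone made up 12069.6 of the 12817.5. Its Cartpt (391), Pcsk1 (36.3), Tbx3 (42.7) and Isl1 (54.1) were the lowest of the P21 libraries, and its Pcsk2 (224) the highest of chow P21. Of 8 anterior pituitary markers listed, 3 stood in the table (Cga, Lhb and Pitx1). Their sum in this library was 35.65, against 14.7 and 9.42 in the other chow P21 libraries and 10.4 to 49.3 in HFD P21. Most of that was Cga, at 24.3, which ran from 9.33 to 44.3 in HFD P21. Its Pitx1 was 9.51, against 2.54 and 0.74 in the other chow P21 libraries and 0.14 to 2.21 in HFD P21.

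All 36 genes were detected in every library, and levels per kilobase of annotated exon set the order among them. Scd2, which encodes a stearoyl-CoA desaturase abundant in brain, ranked first in each group, with mean levels per kilobase of 154 in HFD P21, 234 in chow P21, 123 in HFD P0 and 148 in chow P0. Hmgcs1, the cytosolic HMG-CoA synthase that feeds the mevalonate pathway, ranked second in each group, at 89.3 per kilobase in HFD P21, 87.8 in chow P21, 112 in HFD P0 and 147 in chow P0. Lpl, encoding lipoprotein lipase, ranked last, at 0.391 in HFD P21, 0.828 in chow P21, 0.589 in HFD P0 and 0.421 in chow P0 per kilobase. Msmo1, a sterol-C4 methyl oxidase, was not found under its symbol. Its RefSeq synonym Sc4mol was in the table, and its values are given below as an addition chosen after they had been seen.

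**Figure D1:**
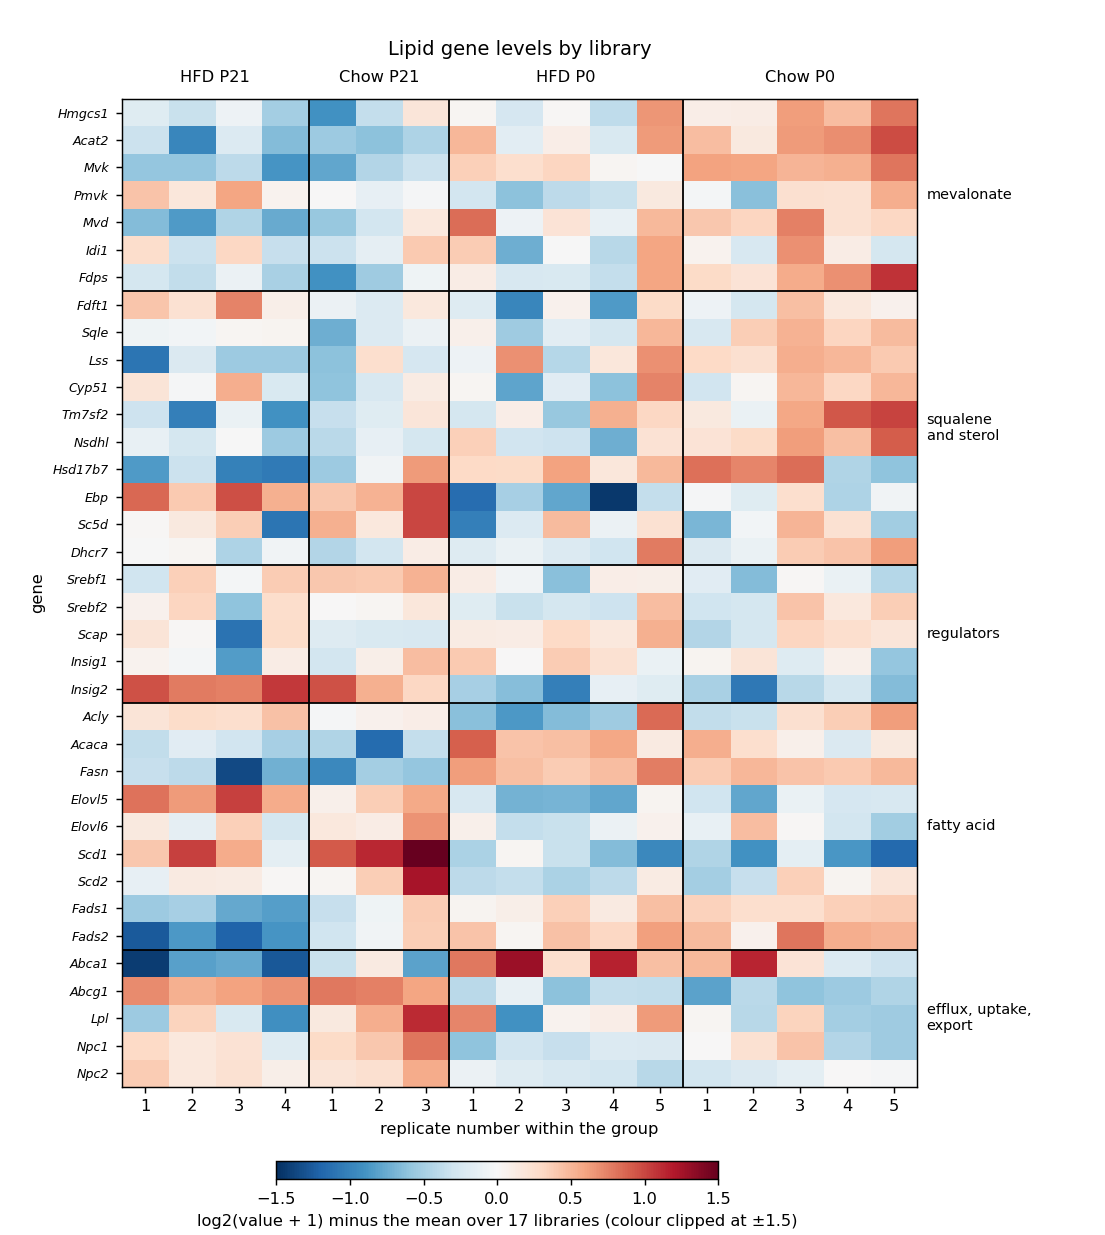
Levels of the 36 genes in the 17 libraries, as log2(value + 1) minus each gene's mean over all libraries, with genes in rows by role and libraries in columns by group. Insig2 and Abcg1 are red in the P21 columns and blue at P0, Mvk and Fasn the reverse, and replicate 5 of HFD P0 is redder than the other HFD P0 libraries over most sterol genes.

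Many more members were called between the ages than between the diets of the dams. From birth to weaning, 9 members rose and 10 fell of the 36 tested in HFD offspring, 52.8% in all, where 50.9% of all 14245 genes tested were called (24.7% higher and 26.2% lower). In chow offspring 7 rose and 10 fell, 47.2% of the members, against 36.1% of all 14549 genes tested (18.3% higher and 17.7% lower). The members' share was close to the background in HFD offspring and above it in chow offspring, a difference that was not tested. The median log2 change of the members was -0.05 in HFD offspring, where that of all genes was also -0.05, and -0.17 in chow offspring, where that of all genes was -0.01. The comparisons of the 2 diets share no library, and 12 members were called in the same direction in both, which is 63.2% of those called in HFD offspring and 70.6% of those called in chow offspring. For all genes tested in both, these shares were 57.0% and 79.2%. Abcg1, Ebp, Elovl5, Insig2, Npc2 and Scd1 rose with both diets, and Acaca, Acat2, Fasn, Lss, Mvd and Mvk fell with both. No member was called in opposite directions. The ages did not overlap for 6 members that were higher and 8 that were lower at P21 in HFD offspring, where 38.7% of all genes did not (19.0% higher and 19.7% lower). In chow offspring this held for 7 higher and 7 lower members, against 37.2% of all genes (19.3% higher and 17.9% lower). Under quantile normalization the HFD age comparison called 6 higher and 12 lower in place of 9 and 10.

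**Figure D2:**
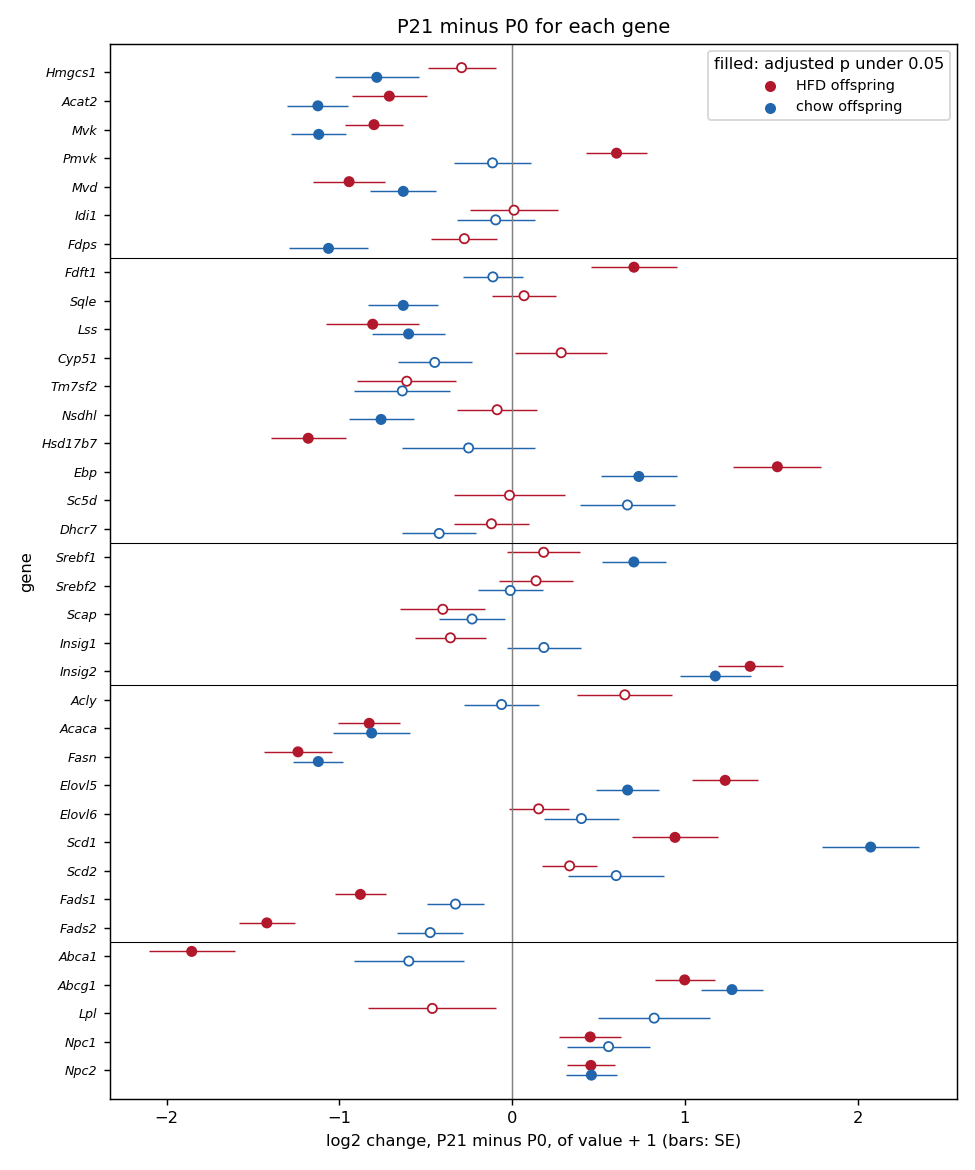
Log2 change from P0 to P21 of each gene, P21 minus P0, in HFD offspring (red) and chow offspring (blue), with bars of 1 SE and filled points for adjusted p under 0.05. Filled points on the left gather in the mevalonate block and at Acaca and Fasn, and filled points on the right at Ebp, Insig2, Elovl5, Scd1, Abcg1 and Npc2.

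Of the 7 mevalonate steps, 3 fell and 1 rose from birth to weaning in HFD offspring, and 5 fell and none rose in chow offspring. These are 57.1% and 71.4% of the steps, where 50.9% and 36.1% of all genes were called. Mvk, encoding mevalonate kinase, had values of 34.6, 34.5, 39.5 and 27.8 in HFD P21, against 67.1, 62.4, 65.3, 53.1 and 51.8 in HFD P0 (log2 change -0.80, SE 0.17, adjusted p 0.00141 with limma). Its values were 29.9, 38.3 and 41.6 in chow P21, against 79.5, 79.2, 74.8, 75.7 and 91.7 in chow P0 (log2 change -1.12, SE 0.16, adjusted p 0.000171). With either diet the P21 libraries all lay below the P0 libraries. Acat2, the cytosolic acetoacetyl-CoA thiolase at the head of the pathway, had 78.1, 74.5 and 82.9 in chow P21, against 158, 127, 179, 186 and 226 in chow P0 (log2 change -1.12, SE 0.18, adjusted p 0.000338). It had 91.0, 57.8, 98.9 and 72.6 in HFD P21, against 162, 102, 123, 97.6 and 179 in HFD P0 (log2 change -0.71, SE 0.22, adjusted p 0.0137). Chow libraries did not overlap between ages, while in HFD offspring the highest P21 value lay above the lowest P0 value.

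Mvd, which encodes the decarboxylase that makes isopentenyl pyrophosphate, was at 34.4, 29.7, 39.6 and 31.7 in HFD P21, against 98.1, 51.5, 62.8, 50.0 and 76.7 in HFD P0 (log2 change -0.94, SE 0.21, adjusted p 0.00199), with no overlap. In chow it was at 36.4, 44.9 and 60.9 at P21, against 72.2, 68.3, 92.6, 63.9 and 67.7 at P0 (log2 change -0.63, SE 0.19, adjusted p 0.0213), again with no overlap. Fdps, the synthase of farnesyl pyrophosphate, fell in chow offspring, to 140.4, 183 and 254 in chow P21, against 323, 304, 389.7, 425 and 564 in chow P0 (log2 change -1.06, SE 0.23, adjusted p 0.00286). The chow P21 libraries lay below every chow P0 library. In HFD offspring Fdps had 189 to 249.8 in P21 and 207 to 401 in P0 (log2 change -0.28, SE 0.19, adjusted p 0.242), ranges that overlap. Of its annotated exonic bases, 26.7% also belong to another gene model of that strand, so its reads are uncertain. Scap, Hmgcs1 and Tm7sf2 share 13.2%, 12.1% and 12.1% of theirs with other gene models. Hmgcs1 fell in chow offspring, where it had 263, 387 and 561 in chow P21, against 532, 536, 763, 684 and 862 in chow P0 (log2 change -0.78, SE 0.24, adjusted p 0.0233). In HFD offspring its values were 346 to 468 at P21 and 379 to 779.9 at P0 (log2 change -0.29, SE 0.20, adjusted p 0.230). Pmvk, phosphomevalonate kinase, went the other way in HFD offspring, where it rose to 126, 106, 142 and 97.6 in HFD P21, against 77.0, 61.1, 71.4, 74.4 and 104 in HFD P0 (log2 change 0.60, SE 0.18, adjusted p 0.0116). Idi1, the isopentenyl isomerase, was not called with either diet (log2 changes 0.01 in HFD and -0.09 in chow offspring). Several calls were lost when 1 library was left out, some of them with little change in the estimate. Hmgcs1 missed the threshold without any 1 of chow P0 replicate 3 and chow P21 replicates 1 and 2 (log2 change -0.79 to -0.51, adjusted p 0.0506 to 0.148), and Mvd without any 1 of chow P0 replicate 3 and chow P21 replicates 1 and 2 (log2 change -0.61 to -0.46, adjusted p 0.0505 to 0.117). In HFD offspring Acat2 missed it without HFD P21 replicate 2 (log2 change -0.57, adjusted p 0.0547).

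Among the 10 squalene and sterol steps, 2 rose and 2 fell in HFD offspring, and 1 rose and 3 fell in chow offspring. With each diet 40% were called, which is below the 50.9% of all genes in HFD and near the 36.1% in chow offspring. Ebp, the X-linked sterol isomerase that binds emopamil, rose with both diets. It had 42.0, 30.2, 45.4 and 33.4 in HFD P21, against 9.77, 15.7, 12.8, 7.69 and 17.5 in HFD P0 (log2 change 1.54, SE 0.26, adjusted p 0.000222), and 30.4, 33.0 and 46.4 in chow P21, against 22.5, 19.98, 27.1, 16.2 and 21.9 in chow P0 (log2 change 0.73, SE 0.22, adjusted p 0.0195). All P21 values exceeded all P0 values of the same diet, and the chow call was lost without chow P21 replicate 3 (log2 change 0.56, adjusted p 0.106). Lss, lanosterol synthase, had 12.3, 23.6, 18.6 and 18.6 in HFD P21, against 26.1, 44.8, 20.2, 31.1 and 44.9 in HFD P0 (log2 change -0.81, SE 0.27, adjusted p 0.0218), and 17.6, 32.9 and 23.0 in chow P21, against 33.9, 32.6, 40.5, 39.3 and 36.5 in chow P0 (log2 change -0.60, SE 0.21, adjusted p 0.0409). The ages overlapped with both diets. Its HFD call was lost without any 1 of HFD P0 replicate 2 and HFD P21 replicate 1 (log2 change -0.69 to -0.64, adjusted p 0.0544 to 0.0764), and its chow call without any 1 of chow P0 replicates 1, 3, 4 and 5 and chow P21 replicates 1 and 3 (log2 change -0.62 to -0.39, adjusted p 0.0505 to 0.201).

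Hsd17b7, a reductase of the sterol demethylation complex, fell in HFD offspring to 12.0, 17.7, 10.6 and 10.3 in HFD P21, against 27.9, 27.5, 34.5, 25.3 and 31.9 in HFD P0 (log2 change -1.18, SE 0.22, adjusted p 0.000510). Those ages did not overlap, whereas in chow its P0 libraries were themselves split, with 40.4, 37.8, 40.9, 16.1 and 14.4, and the change of -0.25 was not called. Nsdhl, a dehydrogenase of the same complex, fell in chow offspring to 30.6, 37.2 and 33.9 in chow P21, against 47.2, 49.9, 63.5, 56.0 and 77.4 in chow P0 (log2 change -0.76, SE 0.19, adjusted p 0.00703). In HFD offspring Nsdhl had a log2 change of -0.09, which was not called. Sqle, the squalene epoxidase, fell in chow offspring to 106, 154 and 167 in chow P21, against 150.2, 228, 256, 221 and 247 in chow P0 (log2 change -0.63, SE 0.20, adjusted p 0.0271), and its call was lost without any 1 of chow P0 replicate 3 and chow P21 replicates 1 and 2 (log2 change -0.70 to -0.43, adjusted p 0.0527 to 0.153). Fdft1, squalene synthase, rose in HFD offspring to 259, 228, 326 and 207 in HFD P21, against 170.2, 97.9, 202, 107 and 237 in HFD P0 (log2 change 0.71, SE 0.25, adjusted p 0.0290), with overlap between the ages, and its call was lost without any 1 of HFD P0 replicates 2 and 4 and HFD P21 replicates 1 and 3 (log2 change 0.54 to 0.69, adjusted p 0.0597 to 0.0953). It shares 18.3% of its exonic bases with Ctsb on the opposite strand, and the strand setting of the counting is not given in the sources used here. Cyp51, Tm7sf2, Sc5d and Dhcr7 were called with neither diet. Their log2 changes ran from -0.61 to 0.28 in HFD and from -0.64 to 0.67 in chow offspring. With 1 library left out some of them passed in chow offspring: Cyp51 without replicate 1 of chow P0 (-0.57, adjusted p 0.0385), Tm7sf2 without replicate 2 (-0.79, adjusted p 0.0280) and Sc5d without replicate 3 (0.82, adjusted p 0.0311). Tm7sf2 also passed in HFD offspring without replicate 3 of HFD P0 (-0.76, adjusted p 0.0459). Sc4mol had 244, 199, 296 and 182 in HFD P21, against 154, 72.4, 112, 89.5 and 171 in HFD P0 (log2 change 0.98, SE 0.24, adjusted p 0.00381). In chow offspring it had 120.0 to 241 at P21 and 106 to 174 at P0 (log2 change 0.33, SE 0.22, adjusted p 0.253).

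Of the 5 regulators, Insig2 rose with both diets and Srebf1 in chow offspring. The share called was 20% in HFD offspring, against 50.9% of all genes, and 40% in chow offspring, against 36.1%. Insig2, which retains the SCAP complex in the endoplasmic reticulum, had 166, 148, 145 and 179 in HFD P21, against 60.4, 54.5, 41.6, 78.4 and 75.2 in HFD P0 (log2 change 1.38, SE 0.19, adjusted p 4.38e-05). It had 167, 124 and 106 in chow P21, against 60.7, 40.2, 63.7, 71.0 and 54.1 in chow P0 (log2 change 1.18, SE 0.20, adjusted p 0.000708). All P21 libraries lay above all P0 libraries of their diet. Srebf1, the SREBP gene tied mainly to fatty acid synthesis, rose to 59.0, 58.4 and 64.1 in chow P21, against 39.3, 27.9, 45.0, 41.2 and 32.7 in chow P0 (log2 change 0.70, SE 0.18, adjusted p 0.00941), with no overlap. In HFD offspring Srebf1 had 35.9 to 58.3 at P21 and 28.3 to 47.9 at P0 (log2 change 0.18, SE 0.21, adjusted p 0.490). Srebf2, the SREBP gene tied mainly to cholesterol synthesis, had log2 changes of 0.14 in HFD and -0.01 in chow offspring, neither of them called. Scap and Insig1 were not called either. Replicate 3 of HFD P21 held the lowest value of its group for Srebf2 (115 to 219 over the group), Scap (44.1 to 117), Insig1 (39.3 to 76.4) and Fasn (79.3 to 159.8).

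Promoter sequences of 5 members that fell or rose between the ages show which short motifs stand upstream of them. The 250 bases before the annotated start are given from RefSeq (GRCm38.p6), read 5′ to 3′ on the gene's strand, with capitals for any match on either strand to the sterol regulatory element TCACNCCAC, the CCAAT box bound by NF-Y, the GC box GGGCGG bound by Sp1, or the E-box CACGTG. Hmgcs1, Mvd and Fasn were among the genes that fell, and Insig2 and Ebp among those that rose. The 2 other annotated starts of Insig2, each with no CCAAT box and 1 GGGCGG, are not shown.
Hmgcs1, chr13:119690101-119690350, plus strand: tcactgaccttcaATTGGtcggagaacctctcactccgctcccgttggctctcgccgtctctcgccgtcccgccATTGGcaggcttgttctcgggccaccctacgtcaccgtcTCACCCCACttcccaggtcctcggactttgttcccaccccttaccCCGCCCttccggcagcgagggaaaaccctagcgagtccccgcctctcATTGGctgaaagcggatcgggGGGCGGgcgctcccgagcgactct
Mvd, chr8:122443423-122443672, minus strand: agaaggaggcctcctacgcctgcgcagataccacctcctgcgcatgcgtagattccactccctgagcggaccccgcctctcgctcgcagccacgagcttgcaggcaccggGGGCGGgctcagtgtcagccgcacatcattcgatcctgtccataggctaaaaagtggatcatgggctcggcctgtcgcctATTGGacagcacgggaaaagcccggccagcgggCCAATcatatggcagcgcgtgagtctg
Fasn, chr11:120824548-120824797, minus strand: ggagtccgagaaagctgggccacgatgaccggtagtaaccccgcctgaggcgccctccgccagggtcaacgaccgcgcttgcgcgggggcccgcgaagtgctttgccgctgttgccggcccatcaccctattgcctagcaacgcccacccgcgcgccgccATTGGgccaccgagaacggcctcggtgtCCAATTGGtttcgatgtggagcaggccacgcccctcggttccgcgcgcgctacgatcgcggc
Insig2, chr1:121332590-121332839, minus strand: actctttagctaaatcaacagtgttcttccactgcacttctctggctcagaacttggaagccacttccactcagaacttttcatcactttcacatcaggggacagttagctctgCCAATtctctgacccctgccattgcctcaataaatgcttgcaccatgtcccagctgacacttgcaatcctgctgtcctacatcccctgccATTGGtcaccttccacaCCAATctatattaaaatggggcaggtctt
Ebp, chrX:8193513-8193762, minus strand: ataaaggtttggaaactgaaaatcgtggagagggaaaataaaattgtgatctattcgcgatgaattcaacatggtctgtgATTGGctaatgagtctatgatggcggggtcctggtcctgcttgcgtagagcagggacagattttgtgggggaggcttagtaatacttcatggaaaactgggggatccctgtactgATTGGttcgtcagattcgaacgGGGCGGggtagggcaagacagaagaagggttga
Hmgcs1 held the sterol regulatory element and was the only one of the 27 members with a promoter entry to hold it. Of 32851 mouse promoters of this length 1.05% held it. Fdps, Fdft1, Sqle, Scd1, Scd2, Fads1, Abcg1, Lpl and Npc1 had no entry and were not searched. A CCAAT box stood in 21 of the 35 member promoters, from 27 members with an entry, against 33.8% of all promoters, and GGGCGG in 25 of 35 against 32.7%. CACGTG stood in 7 of 35, against 6.02% of all. Hmgcs1, Fasn and the start of Insig2 shown here each held 3 CCAAT boxes and Mvd and Ebp 2 each. Promoters of Abca1, Acaca, Acat2 and Fads2, which were also called between the ages, held none. In Fasn a CCAAT box on each strand overlaps the other. No match says only that these letters are not in this window.

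Of the 9 genes of fatty acid synthesis, elongation and desaturation, 2 rose and 4 fell in HFD offspring, and 2 rose and 2 fell in chow offspring. Thus 66.7% were called in HFD offspring, against 50.9% of all genes, and 44.4% in chow offspring, against 36.1%. Acaca and Fasn, which encode acetyl-CoA carboxylase and fatty acid synthase, fell with both diets, and Elovl5 and Scd1 rose with both. Fasn had 159.8, 155, 79.3 and 124 in HFD P21, against 315, 279.8, 265, 282 and 348 in HFD P0 (log2 change -1.24, SE 0.20, adjusted p 0.000149). It had 104, 143 and 136 in chow P21, against 266, 288, 275, 268 and 287 in chow P0 (log2 change -1.12, SE 0.14, adjusted p 7.71e-05). Every P21 library was below every P0 library of its diet. Acaca had 36.9, 42.5, 39.1 and 33.4 in HFD P21, against 90.2, 64.5, 65.7, 71.7 and 52.6 in HFD P0 (log2 change -0.83, SE 0.18, adjusted p 0.00157), and 34.6, 21.0 and 37.1 in chow P21, against 70.3, 57.1, 50.4, 40.8 and 52.9 in chow P0 (log2 change -0.81, SE 0.22, adjusted p 0.0127). Acaca too had no overlap between ages, and its chow call was lost without chow P21 replicate 2 (log2 change -0.56, adjusted p 0.0865). Acly, the citrate lyase that supplies cytosolic acetyl-CoA, was not called with either diet (0.65 in HFD, -0.06 in chow offspring). Without replicate 5 of HFD P0, Acly was called higher at P21 in HFD offspring (log2 change 0.95, adjusted p 1.11e-05), as were Cyp51 (0.51, adjusted p 0.0375) and Scd2 (0.44, adjusted p 0.00230).

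Scd1, a stearoyl-CoA desaturase that makes monounsaturated fatty acids, had 81.3, 94.3 and 177 in chow P21, against 30.8, 22.1, 38.3, 22.6 and 18.3 in chow P0 (log2 change 2.08, SE 0.28, adjusted p 0.000111). It had 56.6, 87.3, 62.8 and 38.3 in HFD P21, against 30.2, 43.1, 33.4, 26.7 and 21.1 in HFD P0 (log2 change 0.94, SE 0.25, adjusted p 0.00605). In chow the ages did not overlap, and in HFD offspring replicate 4 of P21 lay below replicate 2 of P0. Elovl5, an elongase of polyunsaturated fatty acids, had 187, 165, 216 and 156 in HFD P21, against 89.6, 64.5, 65.1, 61.1 and 109 in HFD P0 (log2 change 1.23, SE 0.19, adjusted p 0.000124). In chow it had 111, 137 and 158 at P21, against 85.8, 61.4, 98.7, 89.0 and 89.7 at P0 (log2 change 0.67, SE 0.18, adjusted p 0.0113), and this call was lost without chow P21 replicate 3 (log2 change 0.55, adjusted p 0.0614). Neither diet showed overlap. Elovl6, which lengthens saturated fatty acids, and Scd2 were called with neither diet, though Elovl6 passed in chow offspring without replicate 2 of chow P0 (0.54, adjusted p 0.0427).

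Fads2 and Fads1 encode the delta-6 and delta-5 desaturases that turn dietary essential fatty acids into arachidonic acid and docosahexaenoic acid. They lie near each other on chromosome 19 in GRCm38, Fads2 from 10062765 to 10101746 on the minus strand and Fads1 from 10182888 to 10196877 on the plus strand. Fads2 fell in HFD offspring to 52.1, 68.8, 54.1 and 67.5 in HFD P21, against 169, 129, 172, 156 and 193 in HFD P0 (log2 change -1.42, SE 0.16, adjusted p 8.88e-06). Fads1 had 131, 136, 113 and 108 in HFD P21, against 198, 205, 248, 212 and 264 in HFD P0 (log2 change -0.88, SE 0.15, adjusted p 0.000233). For both desaturases the HFD ages did not overlap. In chow offspring Fads2 had 102, 121 and 162 in P21, against 175, 132, 220.1, 184 and 179 in P0 (log2 change -0.47, SE 0.19, adjusted p 0.0701). Fads1 had 152, 184 and 251 in chow P21, against 245, 230.2, 229, 247 and 251 in chow P0 (log2 change -0.33, SE 0.16, adjusted p 0.140). These chow ages overlapped for both genes, and without replicate 3 of chow P21 the falls of Fads2 (log2 change -0.65) and Fads1 (log2 change -0.52) were both called, each with an adjusted p of 0.0290. The fall of Fads2 was also called without replicate 2 of chow P0 (log2 change -0.58, adjusted p 0.0228).

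Of the 5 genes of efflux, uptake and lysosomal export, 3 rose and 1 fell with age in HFD offspring, and 2 rose in chow offspring. That makes 80% called in HFD offspring, against 50.9% of all genes, and 40% in chow offspring, against 36.1%. Abcg1, a transporter that passes cholesterol to lipoprotein particles, rose to 51.0, 44.8, 47.2 and 49.8 in HFD P21, against 23.1, 28.4, 19.8, 23.8 and 23.5 in HFD P0 (log2 change 1.00, SE 0.17, adjusted p 0.000306). It rose to 54.0, 52.6 and 46.8 in chow P21, against 17.2, 23.1, 19.8, 20.7 and 22.3 in chow P0 (log2 change 1.27, SE 0.18, adjusted p 0.000150). The lowest P21 value was above the highest P0 value with both diets. Abca1, the transporter that loads lipid onto lipid-poor apolipoproteins, fell in HFD offspring to 10.2, 16.2, 16.7 and 11.5 in HFD P21, against 51.3, 72.2, 34.9, 66.2 and 40.3 in HFD P0 (log2 change -1.85, SE 0.25, adjusted p 3.72e-05), with no overlap. In chow offspring Abca1 had 23.0, 32.2 and 16.4 in P21, against 41.3, 65.9, 33.9, 25.3 and 23.4 in P0 (log2 change -0.60, SE 0.32, adjusted p 0.164), so that the chow P0 values alone ran from 23.4 to 65.9 and the ages overlapped. Npc2, a lysosomal cholesterol carrier, rose to 133 ± 11.9 in HFD P21 (SD, n = 4), against 96.4 ± 8.205 in HFD P0 (n = 5; log2 change 0.46, SE 0.14, adjusted p 0.0139). It rose to 144 ± 21.0 in chow P21 (n = 3), against 104 ± 8.69 in chow P0 (n = 5; log2 change 0.46, SE 0.15, adjusted p 0.0267). Npc1, the membrane protein that takes cholesterol from NPC2, rose in HFD offspring (log2 change 0.45, SE 0.18, adjusted p 0.0475), and it had a log2 change of 0.56 in chow offspring that was not called. These lysosomal calls lay near the threshold and were lost when 1 of several libraries was left out. Npc1 was lost without any 1 of HFD P0 replicates 1, 2, 3 and 4 and HFD P21 replicates 1, 2 and 3 (log2 change 0.38 to 0.48, adjusted p 0.0604 to 0.134), Npc2 without HFD P21 replicate 1 (log2 change 0.40, adjusted p 0.0554) in HFD and without any 1 of chow P21 replicates 2 and 3 (log2 change 0.34 to 0.51, adjusted p 0.0589 to 0.133) in chow offspring. Lpl was called with neither diet. Without replicate 3 of chow P0, Npc1 (0.68, adjusted p 0.0430) and Lpl (0.96, adjusted p 0.0444) both passed in chow offspring.

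Markers of several cell types were also called between the ages, where 50.9% of all genes were called in HFD and 36.1% in chow offspring. Of the 14 oligodendrocyte-lineage markers 10 rose and 2 fell between P0 and P21 in HFD offspring, with a median log2 change of 3.09, and 11 rose and none fell in chow offspring, with a median of 3.90. Of the 12 astrocyte markers 7 rose and 3 fell in HFD offspring, and 9 rose in chow offspring. Microglial markers rose in 5 of 14 cases (35.7%) in HFD offspring, a share below that of all genes, and in 10 of 14 (71.4%) in chow offspring. Endothelial and mural markers went the other way in HFD offspring, where 7 of 12 fell and 1 rose (median log2 change -1.33). In chow offspring 1 fell and 2 rose (median -0.07), which is 25% of the list and below the share of all genes. Of the 8 choroid plexus and ependymal markers 4 fell in HFD offspring, and 1 fell and 2 rose in chow offspring. Of the 6 POMC-neuron markers 5 rose in HFD and 4 in chow offspring. Their part in the changes of the lipid genes was not tested.

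**Figure D3:**
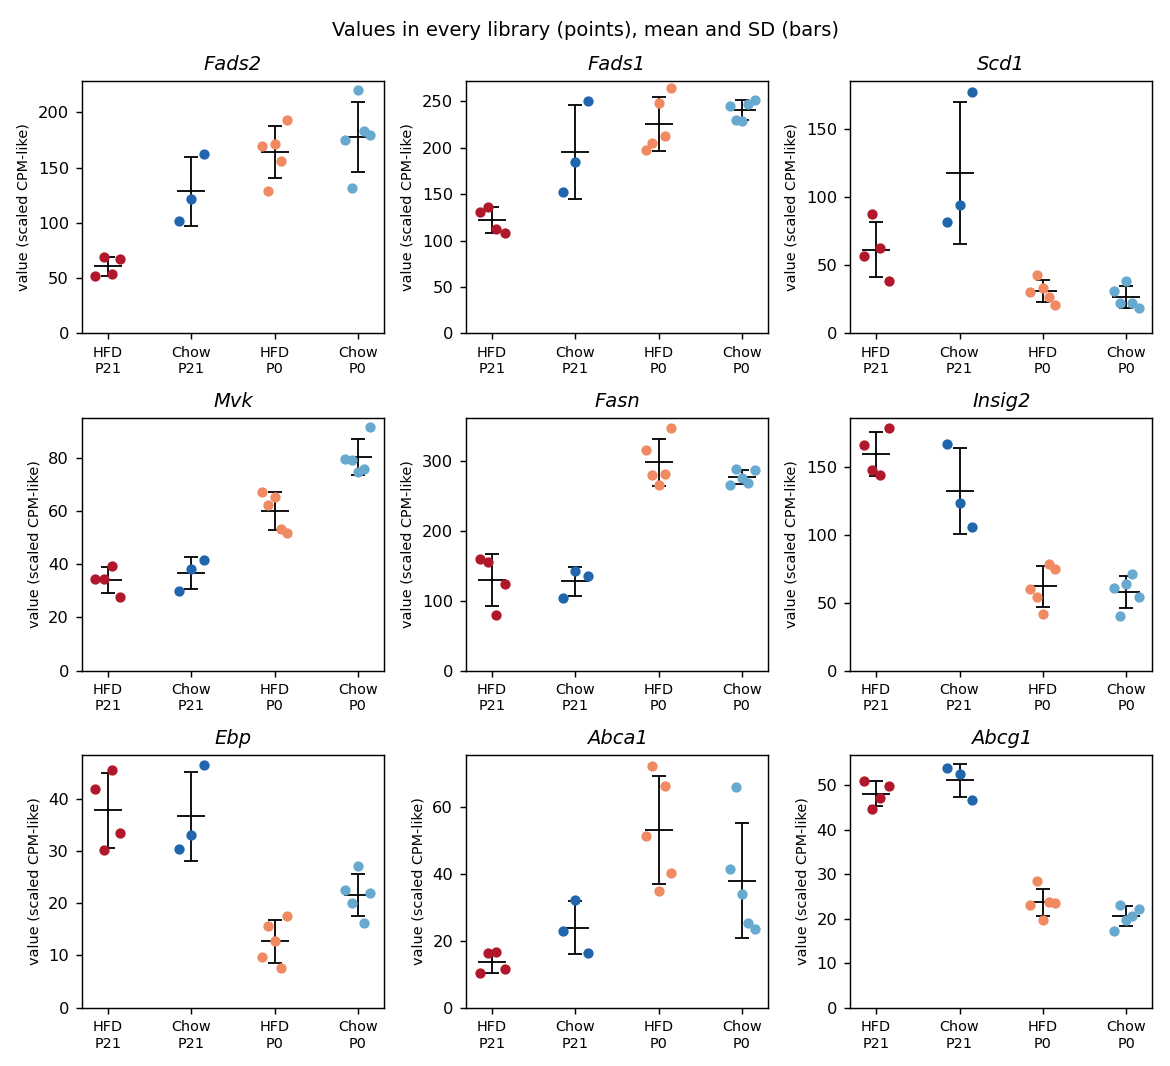
Values of 9 members in every library (points), with the group mean and SD (bars), in scaled CPM-like units on linear axes that start at 0. Mvk and Fasn are lower at P21 than at P0 with both diets, Insig2, Ebp and Abcg1 higher, and the 4 HFD P21 points of Fads2 and Fads1 lie below the chow P21 points.

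At weaning, no member was called between offspring of HFD and chow dams, where 0.178% of 14070 genes tested were called (0.0995% higher and 0.0782% lower). The nearest was Fads2, which had 52.1, 68.8, 54.1 and 67.5 in HFD P21, against 102, 121 and 162 in chow P21. Its means were 60.6 ± 8.76 in HFD (SD, n = 4) and 129 ± 30.9 in chow (SD, n = 3), a difference of -1.06 on the log2 scale (SE 0.19, adjusted p 0.0502 with limma). All HFD libraries lay below all chow libraries. The call depended on settings: Fads2 passed under 6 alternative settings, with adjusted p from 0.0250 to 0.0488, and also without replicate 1 of chow P21, with a difference of -1.21. Without replicate 3 of chow P21 its difference was -0.88 (adjusted p 0.181).

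Fads1 showed the same order, with 131, 136, 113 and 108 in HFD P21, against 152, 184 and 251 in chow P21 (log2 change -0.65, SE 0.18, adjusted p 0.117). Its groups did not overlap, and without replicate 3 of chow P21 the difference was -0.46. Scd1 had 56.6, 87.3, 62.8 and 38.3 in HFD P21, against 81.3, 94.3 and 177 in chow P21 (log2 change -0.90, SE 0.29, adjusted p 0.168). Those groups touched, since replicate 2 of HFD lay above replicate 1 of chow, and without replicate 3 of chow P21, the library with the highest Scd1, the difference was -0.57. Srebf1 had 35.9, 57.2, 43.5 and 58.3 in HFD P21, against 59.0, 58.4 and 64.1 in chow P21, with no overlap but a difference of -0.33 that was not called (adjusted p 0.408).

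Across the members at weaning, 15 differences were above 0 and 21 below, with a median of -0.07, beside -0.02 for all genes. An unadjusted p under 0.05 was reached by 11 members, 30.6% of the members, where 17.01% of all genes did, and none held after adjustment. Groups did not overlap for 3 members that were higher in HFD (Pmvk, Sqle and Acly) and 3 that were lower (Srebf1, Fads1 and Fads2), where 16.1% of all genes did not overlap (8.34% higher and 7.78% lower). Among the 17 sterol enzymes 10 lay above 0 and 7 below, with a median of 0.03. The count rested on single libraries, since 13 of the 17 lay below 0 without replicate 1 of chow P21 (median -0.07) and 6 without replicate 3 of chow P21 (median 0.20). The median was also below 0 without replicate 2 of chow P21 (-0.01), replicate 1 of HFD P21 (-0.01) or replicate 3 of HFD P21 (-0.04). Pmvk had 126, 106, 142 and 97.6 in HFD P21, against 94.4, 86.3 and 92.6 in chow P21, and Sqle 169, 172, 180.4 and 183 in HFD P21, against 106, 154 and 167 in chow P21. Hsd17b7, by contrast, had 12.0, 17.7, 10.6 and 10.3 in HFD P21, against 15.1, 21.5 and 35.5 in chow P21. All 5 genes of efflux, uptake and lysosomal export were below 0, from -0.94 for Lpl to -0.08 for Abcg1, with a median of -0.38. Without replicate 3 of chow P21, 4 of the 5 were below 0 (Npc2 was at 0.00), with a median of -0.22. Abca1 had 10.2, 16.2, 16.7 and 11.5 in HFD P21, against 23.0, 32.2 and 16.4 in chow P21 (-0.74), and Lpl 3.19, 6.74, 4.24 and 2.23 in HFD P21, against 5.79, 7.91 and 12.3 in chow P21. Both pairs of groups overlapped.

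Differences of glial and vascular markers were negative at this age, few of them called. All 14 oligodendrocyte-lineage markers were below 0, with a median difference of -1.09, and so were all 12 astrocyte markers, of which Gjb6, Hepacam and Agt were called, with a median of -0.92. All 14 microglial markers and all 12 endothelial and mural markers were below 0 as well, with medians of -0.84 and -1.01. Microglial sums ran from 262 to 385 in HFD P21 and from 427 to 735 in chow P21, and endothelial sums from 64.8 to 117 in HFD P21 and from 148 to 203 in chow P21. Replicate 3 of chow P21 held the highest oligodendrocyte sum of all libraries and the highest Fads2, Fads1, Scd1 and Scd2 values of the P21 libraries. All 6 POMC-neuron markers had positive differences, with a median of 0.64, and Cartpt, which encodes a peptide made in POMC neurons, was called higher (adjusted p 0.0137). The part of these markers' cells in the desaturase differences was not tested.

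**Figure D4:**
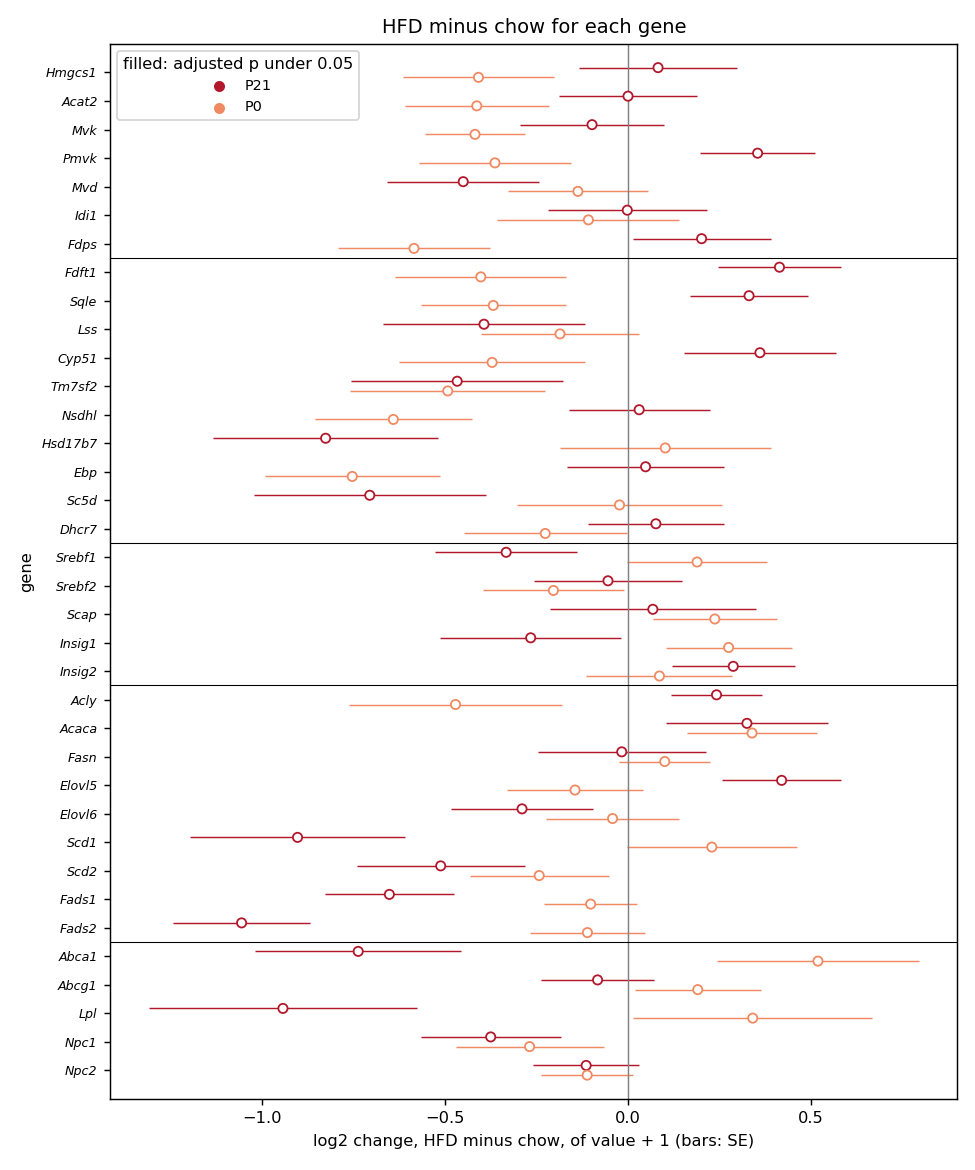
Difference between offspring of HFD and chow dams for each gene, HFD minus chow, at P21 (dark red) and P0 (orange), with bars of 1 SE. No point is filled, since none reached adjusted p under 0.05. At P0 the points of the 2 upper blocks lie left of 0 except Hsd17b7, and at P21 Fads2 is farthest left at -1.06.

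At birth no member was called between the diets either, where 0.291% of 14086 genes tested were called (0.284% lower and 0.00710% higher). Of the 36 members 25 lay below 0, with a median of -0.14. Of the 17 sterol enzymes 16 did, with a median of -0.37, beside 50.4% below 0 and a median of 0.00 for all genes. The 7 mevalonate steps were all below 0 (median -0.41) and 9 of the 10 squalene and sterol steps were (median -0.37). Among the other roles 6 of 9 fatty acid genes, 2 of 5 transporters and 1 of 5 regulators were below 0. Leaving out each library in turn left 14 to 17 of the 17 enzymes below 0, with medians from -0.51 to -0.28. Because these enzymes share their regulators and their libraries, they are not independent observations, and their direction is a description.

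At birth 4 members (11.1%) reached an unadjusted p under 0.05, where 9.28% of all genes did, and edgeR on the recovered reads of 2 HFD and 3 chow libraries called none either. The members with the smallest p were Ebp, Mvk and Nsdhl. Ebp had 9.77, 15.7, 12.8, 7.69 and 17.5 in HFD P0, against 22.5, 19.98, 27.1, 16.2 and 21.9 in chow P0 (log2 change -0.75, SE 0.24, adjusted p 0.295). Mvk had 67.1, 62.4, 65.3, 53.1 and 51.8 in HFD P0, against 79.5, 79.2, 74.8, 75.7 and 91.7 in chow P0 (log2 change -0.42, SE 0.14, adjusted p 0.313). Nsdhl had 52.6, 33.4, 32.8, 24.3 and 47.7 in HFD P0, against 47.2, 49.9, 63.5, 56.0 and 77.4 in chow P0 (log2 change -0.64, SE 0.21, adjusted p 0.335). The diets overlapped for Ebp and Nsdhl, and Mvk was the single member whose groups did not overlap, where 2.45% of all genes did not (1.71% lower and 0.738% higher). Fdps, the fourth member with an unadjusted p under 0.05, had 286, 224, 226, 207 and 401 in HFD P0, against 323, 304, 389.7, 425 and 564 in chow P0, a difference of -0.58 (adjusted p 0.367). Hmgcs1 had 506, 415, 500.2, 379 and 779.9 in HFD P0, against 532, 536, 763, 684 and 862 in chow P0. Replicate 5 of HFD P0 was the highest of its group for Hmgcs1, Fdps and Ebp and was above the chow mean for Hmgcs1 (chow mean 675 ± 144, SD, n = 5).

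Replicate 5 of HFD P0 stood apart from the other HFD P0 libraries, with Pomc at 1057 against 90.7 to 246. Chow P0 libraries differed in Pomc too, with 146, 224, 657, 891 and 1308 in order of replicate. The sterol enzymes had a mean deviation of 0.41 in replicate 5 of HFD P0 and -0.31 to -0.01 in the others. In chow P0 it was 0.11, 0.09, 0.54, 0.32 and 0.42, in the same order. The part of this unequal mix of libraries in the diet difference was not tested. Without replicate 5 of HFD P0 the sterol enzymes had a median difference of -0.51 and no member was called. The difference of Acly was -0.77 without it (adjusted p 0.0669), against -0.47 with it (adjusted p 0.656). Acly had 126, 108, 125, 135 and 352 in HFD P0, against 152, 155, 231, 252 and 303 in chow P0, where replicate 5 of HFD exceeded every chow library. Oligodendrocyte-lineage markers at this age had a median difference of -0.27, with 9 of 12 tested below 0, and POMC-neuron markers one of -0.59, with 5 of 6 below 0. No marker of either list was called, and their part in the direction of the sterol enzymes was not tested.

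**Figure D5:**
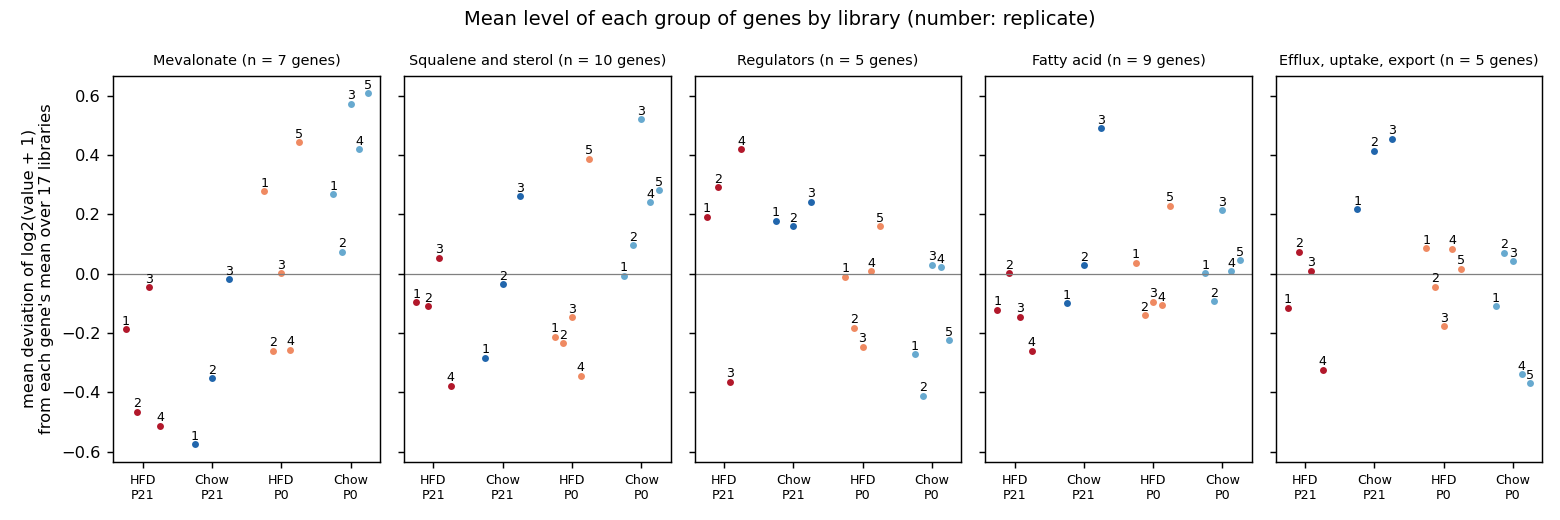
Mean over the genes of each role of log2(value + 1), as the deviation from each gene's mean over the 17 libraries, with one point a library and its replicate number. In the mevalonate panel the chow P0 points lie above 0 and replicates 2 and 4 of HFD P0 below it, while replicate 5 of HFD P0 reaches 0.44.

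Averaged over their genes, the roles set libraries apart in different ways. The 7 mevalonate genes had mean deviations of -0.19, -0.46, -0.04 and -0.51 in HFD P21, of -0.57, -0.35 and -0.02 in chow P21, of 0.28, -0.26, 0.00, -0.26 and 0.44 in HFD P0, and of 0.27, 0.07, 0.57, 0.42 and 0.61 in chow P0. Chow P0 libraries were thus all above the P21 libraries, and HFD P0 libraries spread over both ranges. The 10 squalene and sterol genes had 0.39 in replicate 5 of HFD P0, while the other 4 libraries of that group ran from -0.34 to -0.15.

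Whether the age change differed between the diets was tested with an interaction over all 17 libraries. No member was called, where 0.0266% of 15037 genes tested were (0.0133% in each direction). The 3 with the smallest p were Fads2 (log2 change -0.95, SE 0.25, adjusted p 0.109), Abca1 (log2 change -1.26, SE 0.42, adjusted p 0.178) and Scd1 (log2 change -1.13, SE 0.40, adjusted p 0.192), each with a lower change from P0 to P21 in HFD than in chow offspring. An unadjusted p under 0.05 was reached by 12 members (33.3%), where 15.2% of all genes did. So the falls of Fads2, Fads1 and Abca1 in HFD offspring, which were not called in chow offspring, were not shown to differ between the diets. Without replicate 5 of HFD P0, 2 members were called: Fads2, lower (-0.88, adjusted p 0.0484), and Acly, higher (1.02, adjusted p 0.0344).

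Other genes of the same pathways were read from a list of 41 that holds none of the members, of which 36 were tested in each comparison. At weaning 1 of them was lower in HFD than in chow offspring, Apoe, the main apolipoprotein of brain lipoproteins (log2 change -1.16, SE 0.19, adjusted p 0.0412 with limma). All 12 astrocyte and all 14 microglial markers were below 0 in that comparison (medians -0.92 and -0.84), and all 6 POMC-neuron markers above 0. The part of these markers' cells in the difference of Apoe was not tested. At birth none of the list was called. With age, 16 rose and 8 fell in HFD offspring, 66.7% of the list, where 50.9% of all genes were called, and 11 rose and 8 fell in chow offspring, 52.8%, against 36.1% of all genes. Cyp46a1, the neuronal hydroxylase that clears cholesterol from the brain, rose with both diets (1.61 in HFD and 1.81 in chow offspring). Lrp8, which encodes a lipoprotein receptor that also binds reelin, fell with both (-1.72 in HFD and -2.39 in chow offspring). Fabp7, a fatty acid carrier of neural progenitors and glia, fell by the widest margin of the list, -4.30 in HFD and -4.20 in chow offspring. Acsl5, which activates long-chain fatty acids, rose in HFD offspring by 2.23, and Thrsp, tied to lipogenesis, by 2.13 in HFD and 2.50 in chow offspring.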

How the data were processed

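The members and gene lists were chosen with earlier results of these data known. Nextera XT libraries were sequenced as single reads, per the labels' protocols. Per the submitters' processing notes, reads were handled on build mm10 with TopHat2 2.0.13, Picard 1.80, HTSeq 0.6.1, FastQC and edgeR. Settings, strand and gene filter: not given in the sources used here. What the authors deposited is a normalized signal per gene, CPM-like after scaling and rounded to 2 decimals, without raw counts. As the main test, limma and not a count model was chosen because normalized values were expected. The step worth 1 read, 0.0275 to 0.0460 units, gave the depths. In every library 100% of the low values fell on whole multiples of that step. As an alternative, edgeR 4.0.16 was run only on the 6 libraries set down as having recovered reads. The values of the other libraries fell on whole multiples too, so a count model was not limited to these 6.

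The limma fits (version 3.58.1, R 4.3.3) took log2(value + 1) and let the prior variance follow intensity. A gene entered when as many libraries as the smaller group has, or more, exceeded 1. The pseudocount of 1 understates changes of low genes. Each 2-group fit used its own libraries, the interaction all 17, and tests were two-sided, with Benjamini-Hochberg adjustment at 0.05 over all genes tested. Full statistics are given for members past the threshold and, where fewer than 3 passed, for the 3 with the smallest p. On simulated data the 2-group tests recovered 62% to 91% of 2-fold changes and all 4-fold ones, and the interaction 26% of 2-fold changes. The simulation gave all genes the same dispersion, so real genes with a wider spread are recovered less often. Positions and exon overlaps came from GENCODE M21, promoters from RefSeq. Of 37 symbols 36 matched. The 15 blank columns were not used. Some genes of the list of other pathway genes are not reported here.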

Additional observations from a re-analysis of the deposited data

Results flagged for a closer look

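Of 108 sets of values, each of 1 member in 1 group of 4 or 5 libraries, 6 held a library far from the others by Dixon's test, 5.56%, where chance flags about 1 in 20. In 4 of them replicate 5 of HFD P0 was the highest of its group. It had 131 for Dhcr7, the last reductase of cholesterol synthesis, where the next library had 71.1. It had 241 for Srebf2 (next 154), 352 for Acly (next 135) and 897 for Scd2 (next 642). Replicate 3 of HFD P0 was lowest for Srebf1, at 28.3, where the next library had 42.8. Replicate 5 of chow P0 was highest for Mvk, at 91.7, where the next had 79.5. Groups of 3 libraries were not tested in this way.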

How the results depend on the processing

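Counts of members past the threshold were recomputed under other pseudocounts, filters, scalings and priors, with all 17 libraries in 1 fit, and without each library. None of the 45 changes recomputed alongside (called members, or the 3 with the smallest p) reversed its sign, but small differences that were not called could: at P0, without replicate 3 of chow P0, Idi1 went to 0.05 and Sc5d to 0.13, with -0.11 and -0.02 over all libraries. At P21 the diet comparison gave 1 member, Fads2, in place of 0 with pseudocount 4, a mean above 5, upper-quartile rescaling, quantile normalization, a robust prior or all 17 libraries. Leaving out libraries in turn gave 0 to 0 members for diet at P0, 0 to 1 for diet at P21, 15 to 22 for age in HFD offspring, 12 to 20 for age in chow offspring and 0 to 2 for the interaction. All 9 such fits kept 14 of the 19 HFD age calls, and all 8 kept 9 of the 17 chow age calls. On the libraries with recovered reads, 1 chow P21 against 3 chow P0, edgeR called 1 member, Scd1 (log2 change 3.08), and limma on the same libraries, added after seeing the data, also 1 (3.02), in place of 17; the lone P21 library was assumed to vary like the others. edgeR was not run where HFD P21 enters, because none of its libraries was among those set down for edgeR. Their values fell on whole multiples of the step worth 1 read as well, so that was a choice and not a limit of the values.

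Deviations of same-numbered libraries correlated from -0.173 to 0.492 over 15 pairs, 5 of them over 0.1. Of the 5 pairs of HFD P0 and chow P0 libraries 3 were over 0.1, with 0.492 for replicate 5. Whether the numbers pair libraries at P0 cannot be told from these values, and the labels name no pairing. A fit with the replicate number as a block gave 0 and 0 members for diet at P0 and P21, 21 and 17 for age in HFD and chow offspring and 0 for the interaction. With 3 and 4 libraries a group at P21, differences of 2-fold and more could be missed too. Among the markers, Mag (log2 difference -1.47) and Kdr (-1.54) were not called between the diets at P21.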
